A study of Mus musculus with 9 samples.

Results

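A set of 8 genes of vascular tone, clotting and clot removal were followed across 3 treatments of primary mouse microglia. They were Edn1, Ece1, Adm, F3, F10, Thbs1, Plau and Plaur, matched by symbol among the 24411 gene rows of each library. The 8 genes were chosen by their levels across the 3 treatments, with earlier results of these data known, so the differences between treatments are given for them as a description and without a test. Of the 8 genes, 7 passed the filter on low counts and F10 did not. The microglia were prepared from the brains of ICR pups aged 3 days, shaken off mixed glial cultures, plated for 24 h and treated for 4 h. The groups were R848+IFN-α (1 µM R848 with 100 U/ml IFN-α), R848 (1 µM) and IFN-α (100 U/ml), with 3 libraries each. R848 is a small molecule that activates mouse TLR7, an endosomal sensor of RNA, and IFN-α belongs to the type I interferons. A control group was not analysed here, so every value is a comparison between treated groups, and the effect of the culture and shaking that all groups share cannot be seen.

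Endothelin precursor is cut by furin and then by endothelin-converting enzymes to the constrictor peptide endothelin, which acts through the receptors Ednra and Ednrb. Adrenomedullin is a dilator peptide that acts through the receptor Calcrl paired with a Ramp protein. Tissue factor, the product of F3, binds factor VII and starts clotting by activating factor X, the product of F10. Urokinase, the product of Plau, is held at the cell surface by its receptor Plaur and turns plasminogen into the clot-dissolving enzyme plasmin. Thrombospondin, the product of Thbs1, is a secreted matrix protein that binds Cd36 and Cd47.

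The 250 bases before the start sites of Edn1, Adm, F3 and Plaur are shown because these 4 genes differed most between treatments among the 8. They come from RefSeq, assembly GRCm38.p6, where 6 of the 8 genes matched an entry; all 4 lie on the plus strand. Capitals mark matches to motifs searched on both strands, which were AP-1 (TGANTCA), ISRE (GAAANNGAA), GAS (TTCNNNGAA), the hypoxia element (ACGTG), Egr (GCGNGGGCG), the GC box (GGGCGG), the TATA box (TATAAA) and NF-kappaB. The NF-kappaB motif was GGG, then A or G, any base, A or T, C or T, C or T, and CC. The windows are chr13:42301226-42301475 for Edn1, chr7:110627407-110627656 for Adm, chr3:121723287-121723536 for F3 and chr7:24462233-24462482 for Plaur.
Edn1: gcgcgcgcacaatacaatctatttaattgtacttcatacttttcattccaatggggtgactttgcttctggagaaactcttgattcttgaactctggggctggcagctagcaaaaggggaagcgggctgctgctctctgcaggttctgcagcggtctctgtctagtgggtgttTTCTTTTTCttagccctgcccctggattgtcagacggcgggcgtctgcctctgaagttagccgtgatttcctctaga
Adm: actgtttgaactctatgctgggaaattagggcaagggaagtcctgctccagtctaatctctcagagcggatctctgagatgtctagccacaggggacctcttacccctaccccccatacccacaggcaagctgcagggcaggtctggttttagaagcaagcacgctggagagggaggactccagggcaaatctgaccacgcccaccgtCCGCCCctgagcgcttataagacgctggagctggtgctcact
F3: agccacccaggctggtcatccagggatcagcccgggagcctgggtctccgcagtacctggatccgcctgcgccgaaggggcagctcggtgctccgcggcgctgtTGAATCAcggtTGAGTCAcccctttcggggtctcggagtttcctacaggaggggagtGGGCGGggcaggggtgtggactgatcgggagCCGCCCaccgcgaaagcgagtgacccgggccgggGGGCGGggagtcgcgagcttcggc
Plaur: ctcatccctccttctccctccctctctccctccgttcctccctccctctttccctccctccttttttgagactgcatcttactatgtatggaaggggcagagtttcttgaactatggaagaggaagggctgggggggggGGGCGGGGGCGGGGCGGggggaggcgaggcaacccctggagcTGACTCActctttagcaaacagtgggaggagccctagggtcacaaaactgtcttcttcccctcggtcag

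F3 held 2 AP-1 matches, TGAATCA from 146 to 140 and TGAGTCA from 135 to 129 bases before the start, and 3 GC boxes. Plaur held 1 AP-1 match, TGACTCA from 69 to 63 bases before the start, beside 1 Egr match and 3 GC boxes, of which the Egr match overlaps 2. Edn1 held 1 ISRE match on the minus strand from 77 to 69 bases before the start, and Adm held 1 GC box on the minus strand. Over all 32851 promoters of this length, AP-1 matched in 6.75%, ISRE in 7.13%, Egr in 4.7% and the GC box in 32.7%. No exact match to NF-kappaB, GAS, the hypoxia element or the TATA box was found in these 4 windows, and 3.9%, 7.02%, 16.6% and 12.4% of all promoters held one. Stretches close to a motif were not marked. For example, cggagtttcc in F3 differs from the NF-kappaB motif in its first letter, and tataag in Adm differs from TATAAA in its last. A match is a description of the letters and was not tested as a binding site.

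The libraries held between 2795385 and 6005578 gene counts in the R848+IFN-α group, between 2817772 and 3298567 in the R848 group and between 2505941 and 2852960 in the IFN-α group, and R848+IFN-α replicate 3 was the deepest. All 11 microglial markers passed the low-count filter and none was at 0 in any group. Their summed level ran from 3184 to 3490 CPM (gene counts scaled to a common library size with TMM factors) in the R848+IFN-α group, from 2897 to 3050 CPM in the R848 group and from 4363 to 4653 CPM in the IFN-α group. Astrocyte markers were also present, with 10 of 11 passing the filter and summed levels of 2395 to 3443 CPM in the R848+IFN-α group, 1459 to 1716 CPM in the R848 group and 1165 to 1469 CPM in the IFN-α group. Platelet and megakaryocyte markers summed to 1.55 to 4.63 CPM across the 9 libraries, with Gp9 at 0 in all. The libraries are bulk RNA, so fewer cells of a type and less RNA per cell cannot be told apart, and no value below is assigned to a cell type.

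Edn1 encodes the endothelin precursor and lies on chromosome 13 (42301476 to 42307990, plus strand, GRCm38). Its level was 239, 214 and 204 CPM in the 3 R848+IFN-α libraries, 9.26, 10.1 and 14.5 CPM in the R848 libraries, and 1.16, 1.45 and 1.91 CPM in the IFN-α libraries. All 3 R848+IFN-α libraries were above every R848 library, and all R848 libraries were above every IFN-α library. The mean was 219 ± 17.8 CPM with both agents, 11.3 ± 2.82 CPM after R848 and 1.51 ± 0.377 CPM after IFN-α (SD, n = 3 each). The fitted log2 fold change was 4.27 ± 0.14 (SE) for R848+IFN-α against R848, a 19.3-fold difference. Against IFN-α the log2 fold change of R848+IFN-α was 7.12 ± 0.20, or 139-fold, and only 7 of the 11002 genes tested had a larger positive value. For R848 against IFN-α it was 2.85 ± 0.32, or 7.23-fold. The IFN-α values rest on 3, 4 and 6 reads and the R848 values on 32, 32 and 49 reads. The folds against IFN-α are therefore less precise than the fold against R848. The SEs of 0.20 and 0.32 rest on the same IFN-α libraries, are approximate and may understate the error of so few reads.

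Ece1, the endothelin-converting enzyme that completes the peptide (chromosome 4, 137862237 to 137965229, plus strand), was low and overlapped in all 3 groups. Its level was 5.23, 5.18 and 7.24 CPM with both agents, 8.68, 3.16 and 6.22 CPM with R848, and 5.42, 5.79 and 4.45 CPM with IFN-α. R848 libraries held both the highest and the lowest value of the 9. The log2 fold change was 0.01 ± 0.32 for R848+IFN-α against R848, 0.23 ± 0.34 for R848+IFN-α against IFN-α and 0.23 ± 0.34 for R848 against IFN-α. With 10 to 36 reads per library, a difference of the size of these errors was not detectable at this depth.

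Adm, which encodes adrenomedullin, had the opposite order to Edn1 for R848+IFN-α and R848. Its level was 5.98, 7.77 and 8.65 CPM with both agents, 66.6, 45.6 and 56.0 CPM with R848, and 3.87, 3.98 and 4.13 CPM with IFN-α. The 3 R848 libraries were above all 6 others, and the R848+IFN-α libraries lay above the IFN-α libraries without overlap. The mean was 7.47 ± 1.36 CPM with both agents, 56.0 ± 10.5 CPM after R848 and 4.00 ± 0.132 CPM after IFN-α (SD, n = 3 each). The log2 fold change of R848+IFN-α against R848 was -2.87 ± 0.19, a level 7.29-fold lower with both agents, and 10 of the 11002 genes tested had a more negative value. It was 0.93 ± 0.30 for R848+IFN-α against IFN-α and 3.80 ± 0.22, or 13.9-fold, for R848 against IFN-α. Adm lies on chromosome 7 (110627661 to 110629820, plus strand).

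**Figure D1:**
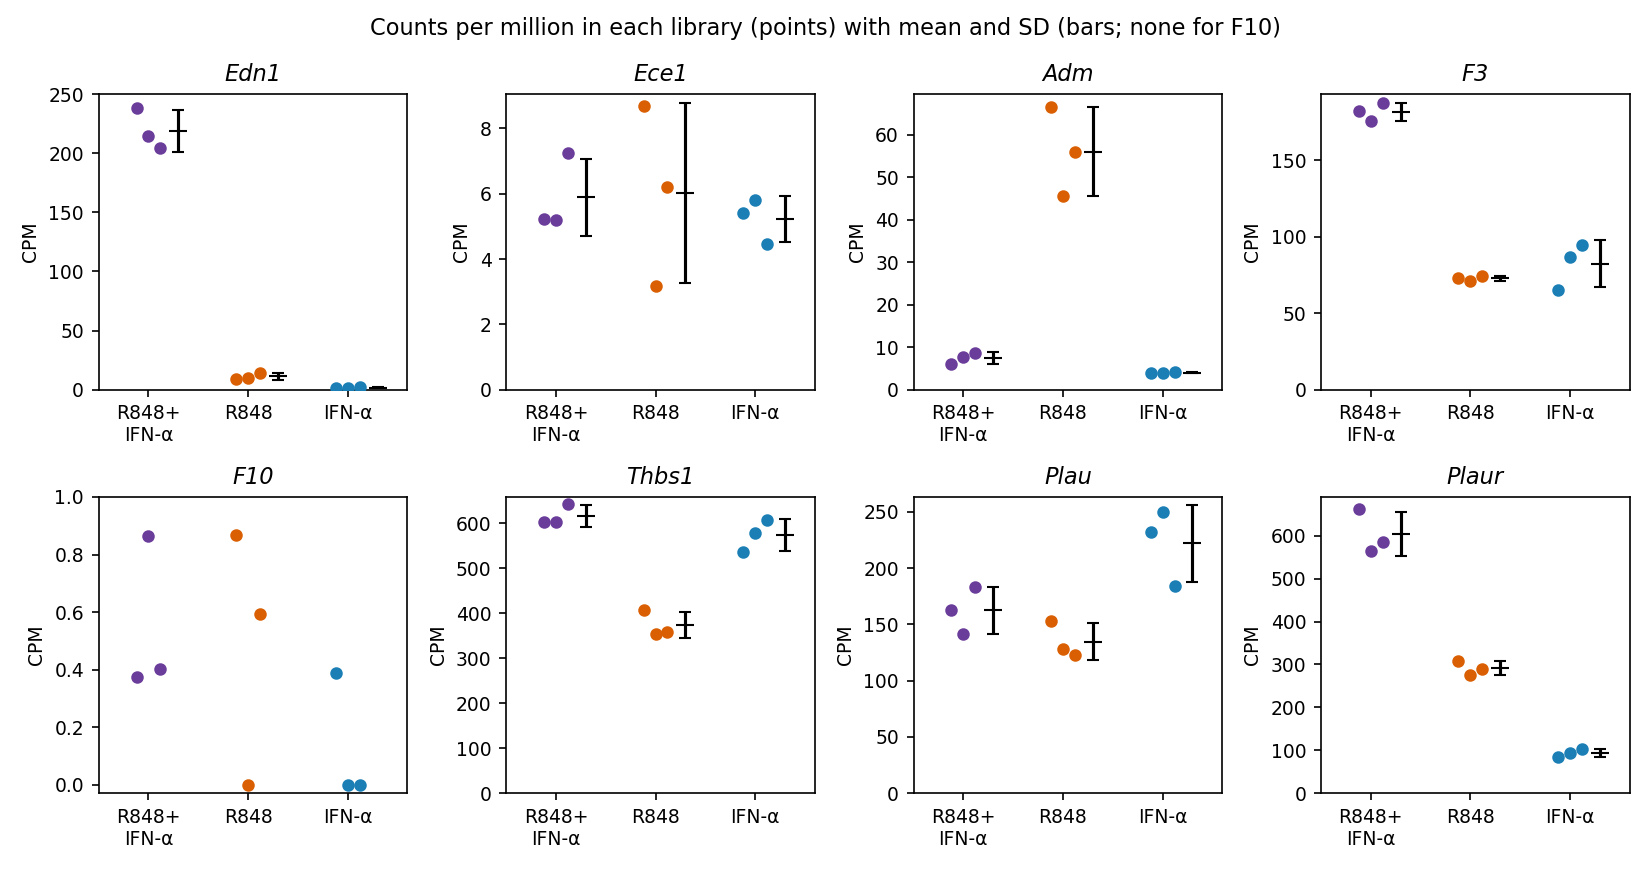
CPM of each of the 8 genes (vertical axes, linear, each with its own scale) in the R848+IFN-α, R848 and IFN-α libraries; points are libraries and bars the mean and SD of 3, not drawn for F10. Edn1 averages 219 CPM in the R848+IFN-α group against 11.3 and 1.51 CPM in the R848 and IFN-α groups, and Adm averages 56.0 CPM in the R848 group against 4.00 CPM in the IFN-α group.

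F3 encodes tissue factor and lies on chromosome 3 (121723537 to 121735048, plus strand). Its level was 182, 176 and 187 CPM with both agents, 73.2, 70.9 and 74.0 CPM with R848, and 65.0, 86.9 and 94.8 CPM with IFN-α. All R848+IFN-α libraries were above the 6 others, while the R848 and IFN-α libraries overlapped. The log2 fold change was 1.32 ± 0.11 for R848+IFN-α against R848, or 2.5-fold, and 1.14 ± 0.11 against IFN-α, or 2.20-fold. For R848 against IFN-α it was -0.18 ± 0.12. The spread was widest in the IFN-α group, at 82.2 ± 15.4 CPM, against 182 ± 5.82 CPM with both agents and 72.7 ± 1.65 CPM with R848 (SD, n = 3 each).

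F10, the clotting factor that tissue factor activates, was hardly detected. It had 1, 2 and 2 reads in the R848+IFN-α libraries, 3, 0 and 2 in the R848 libraries, and 1, 0 and 0 in the IFN-α libraries. The group sums of 5, 5 and 1 reads were too few to test, and no difference was detectable at this depth. A count of 0 allows a level of up to 3 counts, which is 0.949 CPM in the R848 library at 0 and 1.09 and 0.954 CPM in the IFN-α libraries at 0, for counting error only. Its gene lies on chromosome 8 (13037308 to 13056676, plus strand).

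Thbs1, the thrombospondin gene on chromosome 2 (118111876 to 118127133, plus strand), was abundant in all groups and lowest with R848. Its level was 603, 602 and 644 CPM with both agents, 406, 354 and 359 CPM with R848, and 536, 579 and 607 CPM with IFN-α. The R848 libraries were below all 6 others, and the R848+IFN-α and IFN-α libraries overlapped. The mean was 616 ± 23.6 CPM with both agents, 373 ± 29.0 CPM after R848 and 574 ± 35.9 CPM after IFN-α (SD, n = 3 each). The log2 fold change was 0.73 ± 0.085 for R848+IFN-α against R848, 0.10 ± 0.084 for R848+IFN-α against IFN-α and -0.62 ± 0.085 for R848 against IFN-α.

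Plau and its receptor Plaur did not share an order. Plau, urokinase on chromosome 14 (20836660 to 20843385, plus strand), was at 163, 142 and 183 CPM with both agents, 153, 128 and 123 CPM with R848, and 232, 250.2 and 184 CPM with IFN-α. The IFN-α libraries were the highest, though IFN-α replicate 3, at 184.1 CPM, was barely above R848+IFN-α replicate 3, at 183.0 CPM. Its log2 fold change was 0.28 ± 0.12 for R848+IFN-α against R848, with overlapping libraries, -0.44 ± 0.11 for R848+IFN-α against IFN-α and -0.72 ± 0.12 for R848 against IFN-α. Plaur, the urokinase receptor on chromosome 7 (24462484 to 24475968, plus strand), was at 661, 564 and 585 CPM with both agents, 307, 276 and 290.3 CPM with R848, and 84.8, 93.8 and 104 CPM with IFN-α. Its 3 groups were fully separate. The mean was 604 ± 51.1 CPM with both agents, 291 ± 15.9 CPM after R848 and 94.2 ± 9.61 CPM after IFN-α (SD, n = 3 each). Its log2 fold change was 1.05 ± 0.090 for R848+IFN-α against R848 (2.07-fold), 2.68 ± 0.099 for R848+IFN-α against IFN-α (6.39-fold) and 1.62 ± 0.099 for R848 against IFN-α (3.08-fold).

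Of the 7 genes fitted, 4 were higher and 1 was lower in R848+IFN-α than in R848 without overlap of the libraries, where 45.0% of the 11002 genes tested did not overlap. Against IFN-α the count for R848+IFN-α was 4 higher and 1 lower, where 46.2% of genes did not overlap, and for R848 against IFN-α it was 3 higher and 2 lower, where 46.4% did not. The 3 comparisons share libraries and are not independent. CPM was scaled with TMM factors, which set the median log2 fold change of all genes tested at -0.03, -0.01 and 0.02 in the 3 comparisons in this order. With library totals alone that median was -0.42, -0.32 and 0.10, and the log2 fold changes of R848+IFN-α against R848 were 3.88 for Edn1, -3.26 for Adm, 0.93 for F3, 0.34 for Thbs1, -0.11 for Plau and 0.67 for Plaur. With library totals alone the log2 fold changes of R848+IFN-α against IFN-α were 0.61 for Adm, -0.21 for Thbs1 and -0.75 for Plau.

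**Figure D2:**
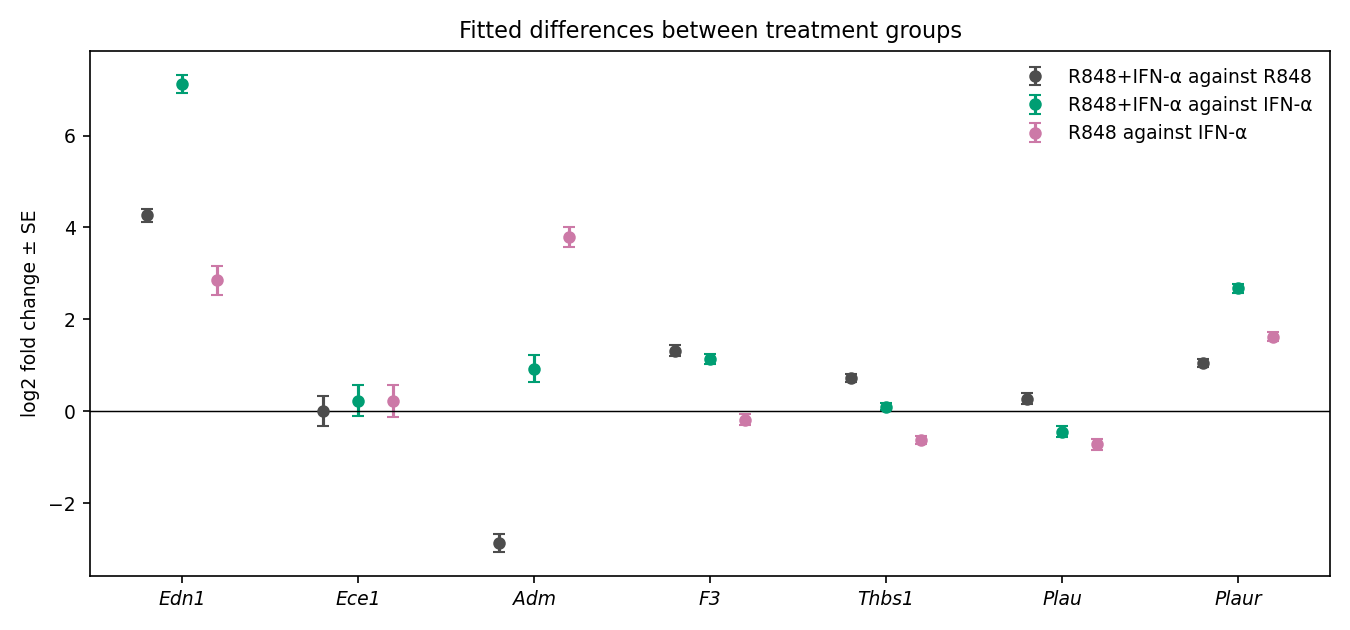
Fitted log2 fold change ± SE (vertical axis) of the 7 genes with enough counts, for R848+IFN-α against R848, R848+IFN-α against IFN-α and R848 against IFN-α. Edn1 is above 0 in all 3 comparisons, Adm is at -2.87 for R848+IFN-α against R848 and 3.80 for R848 against IFN-α, and Ece1 lies within 1 SE of 0 in each.

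Levels of different genes were compared per kilobase of exon, with exon lengths from GENCODE mouse release 21, which is not stated to be the annotation behind the counts. With both agents the mean order was Plaur (231 CPM per kb), Edn1 (102), Thbs1 (102), F3 (71.9), Plau (68.7), Adm (4.61), Ece1 (1.11) and F10 (0.20), and the libraries of Edn1 and Thbs1, and of F3 and Plau, overlapped. With R848 it was Plaur (111 CPM per kb), Thbs1 (61.4), Plau (57.0), Adm (34.6), F3 (28.8), Edn1 (5.28), Ece1 (1.14) and F10 (0.178), and Thbs1 overlapped Plau as Adm overlapped F3. With IFN-α it was Thbs1 (94.5 CPM per kb), Plau (93.9), Plaur (36.0), F3 (32.5), Adm (2.47), Ece1 (0.985), Edn1 (0.704) and F10 (0.0473), and Thbs1 overlapped Plau, Plaur overlapped F3, and Ece1 overlapped Edn1. Edn1 thus stood among the highest of the 8 with both agents and next to last with IFN-α. With the longest transcript in place of all exons, Thbs1 (105 CPM per kb) stood above Edn1 (102) in the R848+IFN-α group.

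**Figure D3:**
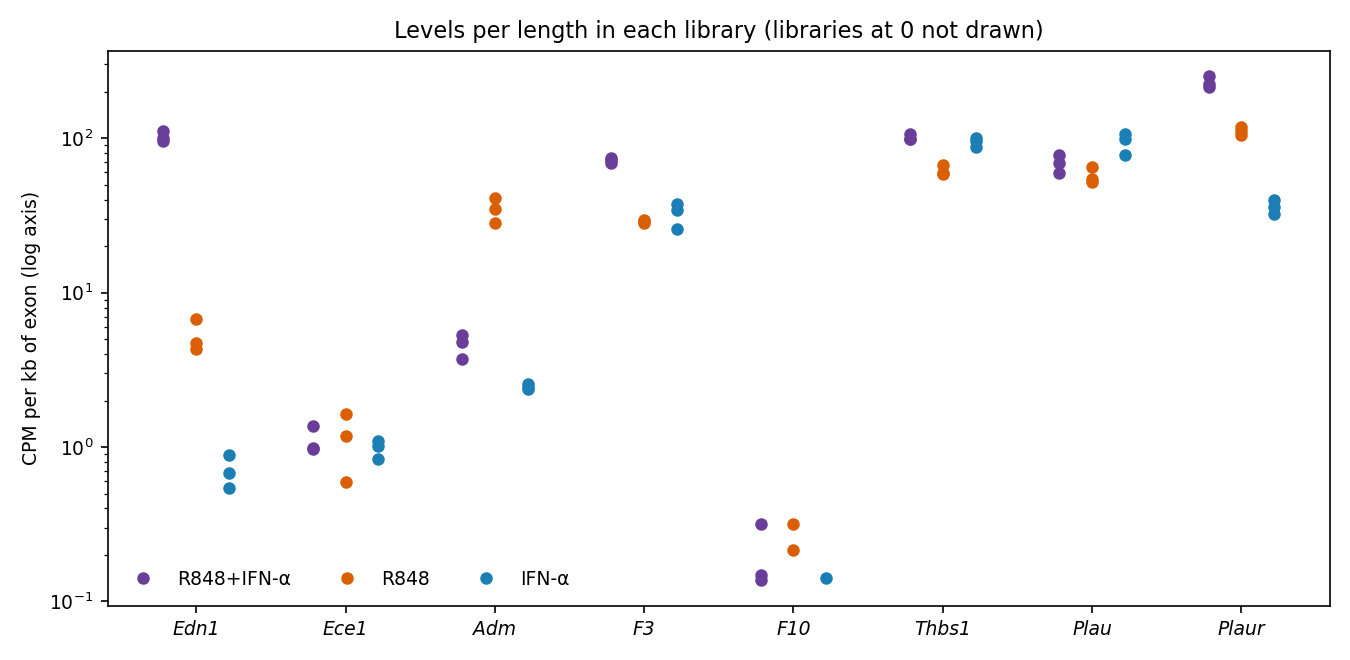
CPM per kb of exon (vertical axis, log scale) of each gene in each library, R848+IFN-α, R848 and IFN-α from left to right; libraries at 0 are not drawn. Edn1 runs from 95.4 to 112 CPM per kb with both agents and from 0.543 to 0.892 CPM per kb with IFN-α, while Ece1 averages 1.11, 1.14 and 0.985 CPM per kb with both agents, R848 and IFN-α.

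The other genes of these pathways were taken from 5 lists of 77 genes, of which 39 passed the low-count filter. A gene was called where edgeR's quasi-likelihood test gave a Benjamini-Hochberg adjusted p under 0.05 over all 11002 genes tested. For R848+IFN-α against R848, 14 of the 39 rose and 6 fell, where 19.2% of all genes tested rose and 16.7% fell, and the median log2 fold change of the 39 was 0.32 against -0.03 for all genes. For R848+IFN-α against IFN-α, 17 rose and 4 fell, where 18.5% of all genes rose and 14.7% fell, with a median of 0.32 against -0.01. For R848 against IFN-α, 12 rose and 6 fell, where 18.4% of all genes rose and 19.0% fell, with a median of 0.01 against 0.02. The same shares of all genes apply to the counts of each list below. The split of the 39 depended on scaling in both comparisons with R848+IFN-α. With library totals alone 4 rose and 12 fell against R848, where 10.7% of all genes tested rose and 45.3% fell, and 11 rose and 12 fell against IFN-α, where 9.49% of all genes rose and 34.2% fell. With upper-quartile factors 12 rose and 9 fell against R848, where 15.6% of all genes rose and 26.0% fell. The same factors gave 16 rises and 7 falls against IFN-α, where 15.4% of all genes rose and 19.0% fell, while R848 against IFN-α kept 12 and 6 under both.

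In the endothelin and adrenomedullin list, 7 of 18 genes were tested. Of these, 2 rose and 2 fell in R848+IFN-α against R848 (median log2 fold change 0.12), against IFN-α 4 rose and none fell (0.30), and for R848 against IFN-α 2 rose and none fell (0.12). Library totals alone gave 2 rises and 3 falls against R848, and 2 rises and no fall against IFN-α. Furin, which cuts the endothelin precursor, was at 298 ± 13 CPM with both agents, 164 ± 30.6 CPM after R848 and 163 ± 8.06 CPM after IFN-α. It rose by 0.85 ± 0.10 against R848 (log2, edgeR adjusted p = 7.22e-08) and by 0.87 ± 0.11 against IFN-α (edgeR adjusted p = 7.55e-08). Ece2, another converting enzyme of the same family, was at 23.6 ± 1.07 CPM with both agents, 11.8 ± 1.93 CPM after R848 and 15.9 ± 1.89 CPM after IFN-α. It rose against R848 by 0.99 ± 0.19 (edgeR adjusted p = 7.34e-05) and against IFN-α by 0.56 ± 0.18 (edgeR adjusted p = 0.0170), the second of which missed the threshold when R848+IFN-α replicate 1, IFN-α replicate 1 or IFN-α replicate 3 was left out (edgeR adjusted p of 0.0509, 0.0569 and 0.0810) and with library totals alone (0.315).

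Ednrb was the endothelin receptor with reads in number, at 218 ± 26.9 CPM with both agents, 261 ± 38.9 CPM after R848 and 177 ± 4.39 CPM after IFN-α. It rose by 0.56 ± 0.11 in R848 against IFN-α (log2, edgeR adjusted p = 6.99e-05). It fell by 0.27 against R848 with both agents (edgeR adjusted p = 0.0482) and rose by 0.30 against IFN-α (edgeR adjusted p = 0.0337), and both calls were lost when single libraries were left out. The first was lost without R848+IFN-α replicate 1 or 3, R848 replicate 2 or 3, or any IFN-α library, and the other without R848+IFN-α replicate 1 or 2 or any IFN-α library. Against IFN-α the log2 fold change of Ednrb was -0.01 with library totals alone (edgeR adjusted p = 0.952) and 0.21 with upper-quartile factors (edgeR adjusted p = 0.129). Ednra held 52 reads over the 9 libraries, Edn2 held 1 and Edn3 none, all too few to test.

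Calcrl, which pairs with a Ramp protein in the adrenomedullin receptor, had its highest level in the R848 group, as Adm did. It was at 39.6, 30.2 and 31.4 CPM with both agents, 59.3, 79.4 and 82.3 CPM with R848, and 9.68, 10.5 and 7.95 CPM with IFN-α, with no overlap between groups. Calcrl fell by 1.13 on the log2 scale in R848+IFN-α against R848 (SE 0.15, edgeR adjusted p = 2.02e-07). It rose by 1.84 ± 0.20 against IFN-α (edgeR adjusted p = 7.48e-09), and by 2.98 ± 0.18 in R848 against IFN-α (edgeR adjusted p = 1.21e-14). Of its partner proteins, Ramp1 was at 8.66 ± 2.02 CPM with both agents, 6.99 ± 0.579 CPM after R848 and 7.94 ± 1.63 CPM after IFN-α. Ramp1 was not called. Ramp2 held 15 reads and Ramp3 18 over the 9 libraries, too few to test. Whether Calcrl formed a receptor for adrenomedullin in these cells was not tested.

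In the list of coagulation factors and thrombin receptors, 10 of 25 genes were tested. None rose and 3 fell in R848+IFN-α against R848 (median log2 fold change -0.13), against IFN-α 2 rose and 1 fell (0.01), and for R848 against IFN-α 3 rose and 1 fell (-0.08). Scaled by library totals alone, 0 rose and 6 fell against R848 and 1 rose and 5 fell against IFN-α. The 3 that fell with both agents against R848 were P4hb, a protein disulfide isomerase (-0.45 ± 0.10, edgeR adjusted p = 0.000698), Mcfd2, which carries factors V and VIII out of the endoplasmic reticulum (-0.46 ± 0.12, edgeR adjusted p = 0.00246), and Ano6, a scramblase that exposes phosphatidylserine (-0.35 ± 0.098, edgeR adjusted p = 0.00497). F2r, the main thrombin receptor gene, was at 76.7 ± 4.71 CPM with both agents, 88.4 ± 4.42 CPM after R848 and 45.4 ± 6.24 CPM after IFN-α. It rose by 0.75 ± 0.12 with both agents (edgeR adjusted p = 1.09e-05) and by 0.95 ± 0.12 with R848 (edgeR adjusted p = 8.97e-08), each against IFN-α. Against R848 its value with both agents was -0.20 ± 0.11, not called (edgeR adjusted p = 0.161, and 0.000698 with library totals alone). Ano6 rose in the same 2 comparisons, by 0.38 and 0.74 (edgeR adjusted p = 0.00425 and 4.39e-07, the first 0.696 with library totals alone), and P4hb by 0.38 in R848 against IFN-α (edgeR adjusted p = 0.00271).

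F13a1, the subunit of factor XIII that cross-links fibrin and a gene of macrophages, fell by 0.47 against IFN-α both with R848+IFN-α (edgeR adjusted p = 0.000397) and with R848 (edgeR adjusted p = 0.000326). F7, the partner of tissue factor, held 6 reads over the 9 libraries, F2 held 1 and the protease receptor F2rl1 held 12, all too few to test.

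In the anticoagulant list, 7 of 12 genes were tested. For R848+IFN-α against R848, 3 rose and none fell (median log2 fold change 0.62), against IFN-α 3 rose and none fell (0.32), and for R848 against IFN-α 2 rose and 1 fell (0.03). Scaling by library totals alone gave 1 rise and 1 fall against R848, and 3 rises and 2 falls against IFN-α. Procr, the endothelial protein C receptor, was at 74.7, 80.3 and 64.7 CPM with both agents, 61.1, 35.4 and 44.1 CPM with R848, and 6.97, 5.07 and 4.13 CPM with IFN-α. Its 3 groups did not overlap. Procr rose by 0.63 ± 0.15 in R848+IFN-α against R848 (log2, edgeR adjusted p = 0.00165, and 0.180 with library totals alone), by 3.76 ± 0.22 against IFN-α (edgeR adjusted p = 1.21e-14) and by 3.14 ± 0.23 in R848 against IFN-α (edgeR adjusted p = 1.09e-12). Its ligand gene Proc held 1 read in all.

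Pros1, the protein C cofactor, rose by 0.72 ± 0.16 with both agents against R848 (edgeR adjusted p = 0.000541, and 0.108 with library totals alone) and fell by 0.83 in R848 against IFN-α (edgeR adjusted p = 8.58e-05). Anxa5, a phosphatidylserine-binding protein, rose by 0.78 ± 0.081 with both agents (edgeR adjusted p = 4.53e-09) and by 0.87 ± 0.081 with R848 (edgeR adjusted p = 2.21e-10), each against IFN-α. Tfpi2, a protease inhibitor, rose by 1.30 ± 0.37 against R848 (edgeR adjusted p = 0.00687) and by 1.33 ± 0.39 against IFN-α (edgeR adjusted p = 0.00850). The Tfpi2 calls missed the threshold without R848+IFN-α replicate 1 (edgeR adjusted p = 0.0723 against R848 and 0.0794 against IFN-α), and the call against R848 also without R848 replicate 2 (edgeR adjusted p = 0.0537). Tfpi, the inhibitor of the tissue factor pathway, was at 11.4 ± 1.98 CPM with both agents, 11.9 ± 2.92 CPM after R848 and 14.1 ± 1.09 CPM after IFN-α, and Thbd, thrombomodulin, at 5.16 ± 1.54, 3.48 ± 0.605 and 4.25 ± 1.68 CPM in the same groups; neither was called in any comparison with TMM factors. With library totals alone Tfpi fell by 0.58 in R848+IFN-α against IFN-α (edgeR adjusted p = 0.0407).

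In the fibrinolysis list, 8 of 12 genes were tested. In R848+IFN-α against R848, 6 rose and none fell (median log2 fold change 0.55), against IFN-α 5 rose and 1 fell (0.55), and for R848 against IFN-α 2 rose and 2 fell (-0.01). The counts depended on scaling: with library totals alone none of the 8 was called against R848, and 3 rose and 2 fell against IFN-α, and with upper-quartile factors 4 rose against R848. S100a10, which with Anxa2 binds plasminogen at the cell surface, rose by 0.69 ± 0.11 against R848 (log2, edgeR adjusted p = 6.11e-06, and 0.0645 with library totals alone).

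Plat, tissue plasminogen activator, was at 34.7 ± 11.3 CPM with both agents, 23.2 ± 2.46 CPM after R848 and 19.8 ± 2.68 CPM after IFN-α. Its rise of 0.63 ± 0.18 against R848 (edgeR adjusted p = 0.00769) and of 0.86 ± 0.19 against IFN-α (edgeR adjusted p = 0.000757) rested on R848+IFN-α replicate 3, without which the values were 0.29 (edgeR adjusted p = 0.285) and 0.52 (edgeR adjusted p = 0.0563). Serpinb2, an inhibitor of plasminogen activators, was at 216 ± 18.4 CPM with both agents, 174 ± 20.9 CPM after R848 and 91.0 ± 23.8 CPM after IFN-α. It rose by 1.24 ± 0.13 with both agents (edgeR adjusted p = 2.08e-08) and by 0.93 ± 0.13 with R848 (edgeR adjusted p = 1.91e-06), each against IFN-α, and its value of 0.31 ± 0.12 against R848 was not called (edgeR adjusted p = 0.0520), though it passed when R848+IFN-α replicate 1, R848 replicate 3, or IFN-α replicate 1 or 3 was left out. Plgrkt, a plasminogen receptor, was at 38.3 ± 3.49 CPM with both agents, 25.6 ± 4.79 CPM after R848 and 59.8 ± 6.61 CPM after IFN-α. It rose by 0.59 ± 0.15 with both agents against R848 (edgeR adjusted p = 0.00329, and 0.353 with library totals alone) and fell by 0.64 against IFN-α (edgeR adjusted p = 0.000716), and by 1.22 in R848 against IFN-α (edgeR adjusted p = 5.07e-08). Anxa2 rose by 0.77 ± 0.11 with both agents (edgeR adjusted p = 1.88e-06) and by 0.45 ± 0.11 with R848 (edgeR adjusted p = 0.00177), each against IFN-α. The plasminogen gene Plg had no read in any of the 9 libraries.

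Lrp1, which takes up complexes of protease and inhibitor, fell by 0.69 in R848 against IFN-α (edgeR adjusted p = 0.00552, and 0.0609 without IFN-α replicate 1). Its rise of 0.50 ± 0.19 with both agents against R848 (edgeR adjusted p = 0.0433) was lost when R848+IFN-α replicate 2 or 3, any R848 library or IFN-α replicate 2 was left out. It was also lost with library totals alone (0.11, edgeR adjusted p = 0.594) and with upper-quartile factors (0.37, edgeR adjusted p = 0.131). A stricter low-count filter, unstranded counts and DESeq2 lost it too. Anxa2 rose by 0.32 ± 0.11 in R848+IFN-α against R848 (edgeR adjusted p = 0.0197), a call lost without R848+IFN-α replicate 2 or 3 or R848 replicate 3. With library totals alone the Anxa2 value was -0.07 (edgeR adjusted p = 0.662), and with upper-quartile factors 0.18 (edgeR adjusted p = 0.170).

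Among the thrombospondins and their receptors, 7 of 10 genes were tested. For R848+IFN-α against R848, 3 rose and 1 fell (median log2 fold change 0.09), against IFN-α 3 rose and 2 fell (0.35), and for R848 against IFN-α 3 rose and 2 fell (0.11). Library totals alone gave 1 rise and 2 falls against R848, and 2 rises and 3 falls against IFN-α. Cd47, a thrombospondin receptor and a signal against engulfment, was at 229, 223 and 222 CPM with both agents, 73.5, 83.5 and 85.0 CPM with R848, and 162, 186 and 179 CPM with IFN-α. Its 3 groups did not overlap, and the R848 group was lowest, as for Thbs1. Cd47 rose by 1.48 ± 0.098 in R848+IFN-α against R848 (log2, edgeR adjusted p = 1.42e-13), rose by 0.35 ± 0.094 against IFN-α (edgeR adjusted p = 0.00388, and 0.848 with library totals alone) and fell by 1.12 in R848 against IFN-α (edgeR adjusted p = 6.87e-11). Cd36, the other main receptor, was at 257 ± 12.9 CPM with both agents, 273 ± 51.9 CPM after R848 and 296 ± 12 CPM after IFN-α and was not called in any comparison with TMM factors and all 9 libraries. It passed against R848, as lower with both agents, when R848 replicate 1 was left out (-0.22, edgeR adjusted p = 0.0214) and with library totals alone (-0.48, edgeR adjusted p = 0.00420). Its R848+IFN-α libraries were all below its IFN-α libraries, with a log2 fold change of -0.20 (edgeR adjusted p = 0.152). That comparison passed in 5 other settings, with adjusted p from 0.00339 with library totals alone (-0.51) to 0.0455 without R848 replicate 1 and R848+IFN-α replicate 3 (-0.21).

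Thbs2, a related thrombospondin, was at 54.5 ± 0.462 CPM with both agents, 39.1 ± 4.71 CPM after R848 and 21.9 ± 2.56 CPM after IFN-α. It rose by 0.48 ± 0.13 in R848+IFN-α against R848 (edgeR adjusted p = 0.00486, and 0.656 with library totals alone), by 1.31 ± 0.15 against IFN-α (edgeR adjusted p = 1.70e-08) and by 0.83 ± 0.15 in R848 against IFN-α (edgeR adjusted p = 4.22e-05). Tgfb1, the latent cytokine that thrombospondin can activate, rose by 1.21 ± 0.19 with both agents (edgeR adjusted p = 4.66e-06) and by 1.12 ± 0.18 with R848 (edgeR adjusted p = 1.04e-05), each against IFN-α. Against R848 it was at 0.09 ± 0.16 and not called, but passed without R848 replicate 1 (0.38, edgeR adjusted p = 0.0305). Itgav, an integrin subunit, fell by 0.38 with both agents against R848 (edgeR adjusted p = 0.000971) and by 0.27 against IFN-α (edgeR adjusted p = 0.0179, a call lost without R848+IFN-α replicate 3 or IFN-α replicate 2 or 3). Adamts1, a protease that cuts thrombospondins, rose by 0.45 ± 0.11 in R848+IFN-α against R848 (edgeR adjusted p = 0.00257, and 0.717 with library totals alone) and fell by 0.74 in R848 against IFN-α (edgeR adjusted p = 2.98e-06). Its fall of 0.29 in R848+IFN-α against IFN-α (edgeR adjusted p = 0.0424) was lost without R848+IFN-α replicate 2 or 3 or any IFN-α library. Thbs3 rose by 0.94 ± 0.35 in R848 against IFN-α (edgeR adjusted p = 0.0341), a call lost without R848 replicate 2 or 3 or IFN-α replicate 2 or 3.

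**Figure D4:**
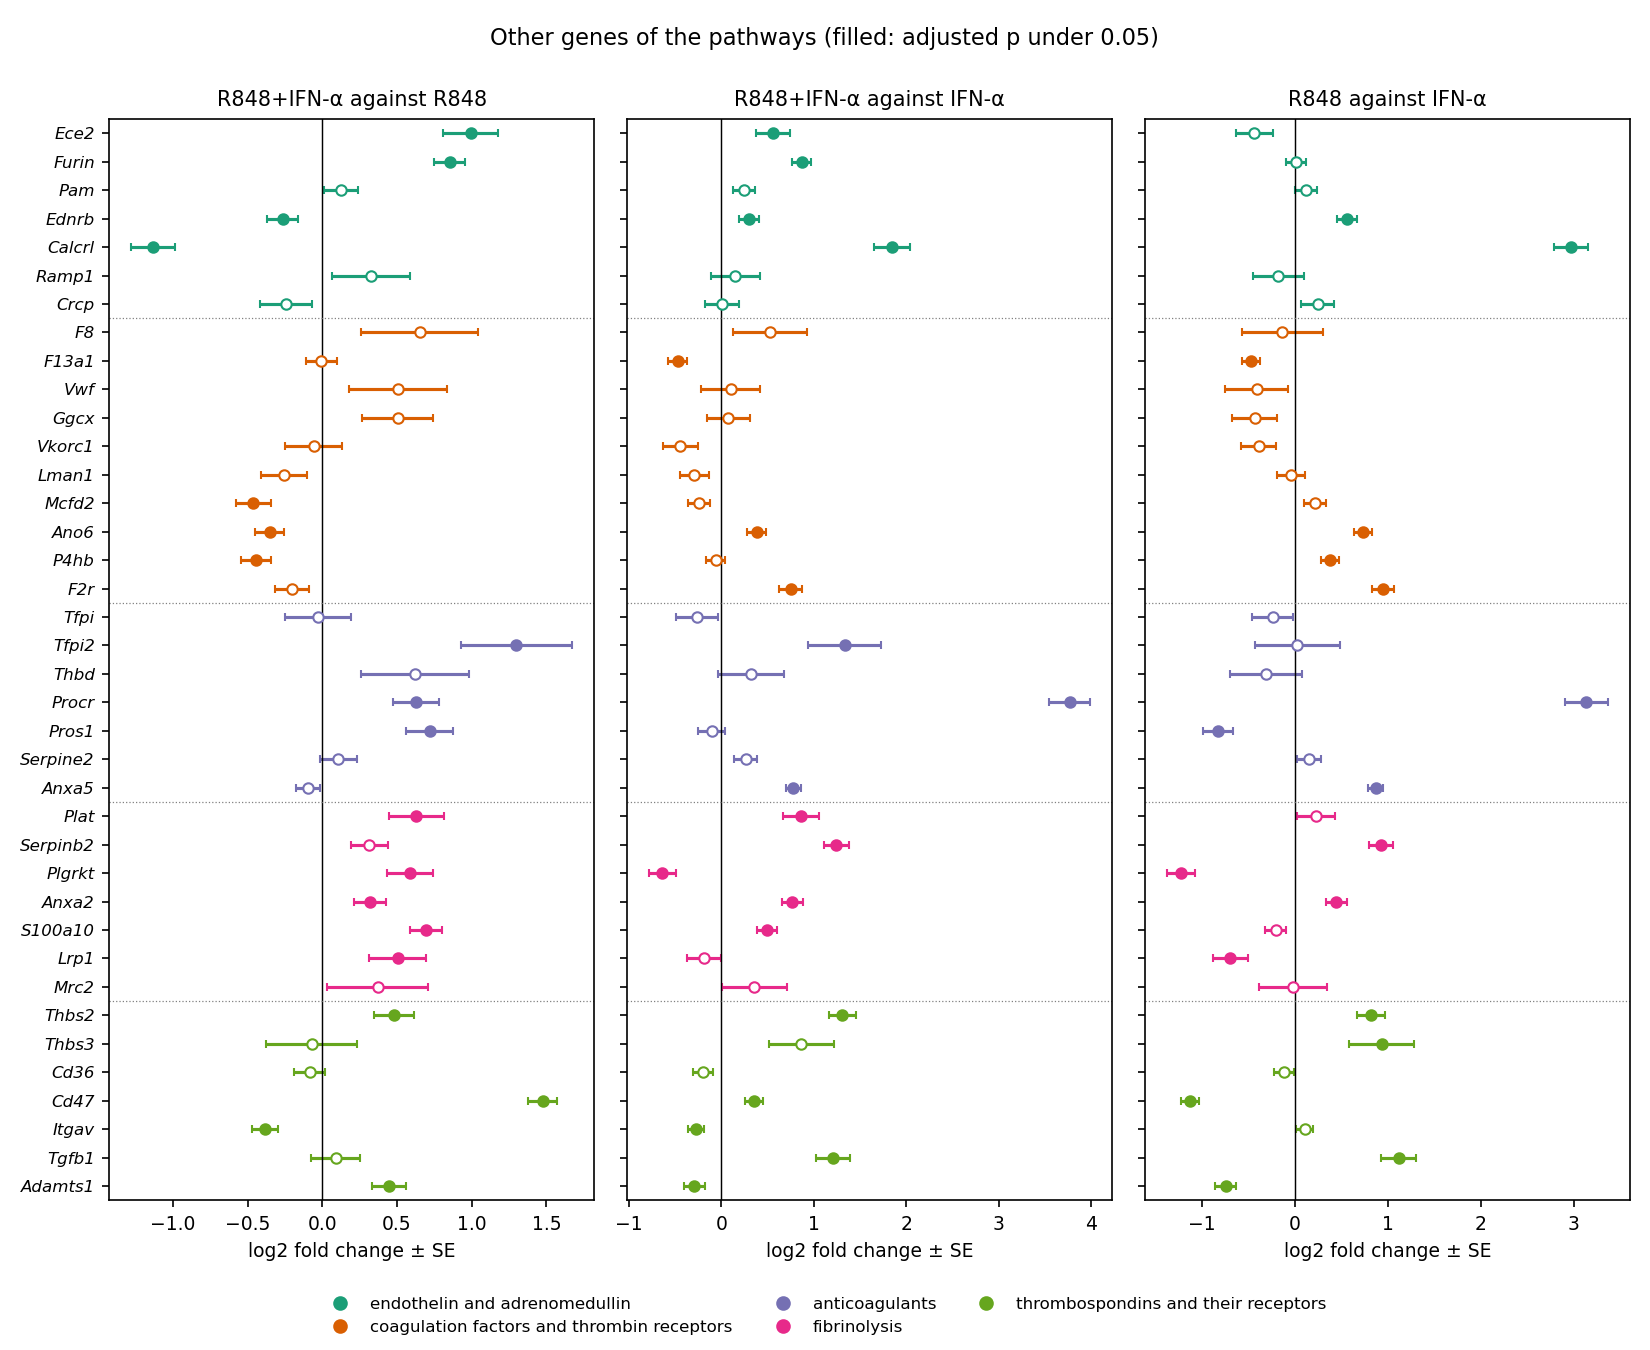
Fitted log2 fold change ± SE (horizontal axes) of other pathway genes tested, by list, for R848+IFN-α against R848, R848+IFN-α against IFN-α and R848 against IFN-α; filled points have an edgeR adjusted p under 0.05. Calcrl is at -1.13 and Cd47 at 1.48 in the first panel, and Procr is at 3.76 and 3.14 in the other two.

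Astrocyte markers also differed between the groups. Of the 10 tested, 9 rose and none fell in R848+IFN-α against R848 (edgeR, same threshold), where 19.2% of all genes rose and 16.7% fell. Against IFN-α 5 rose and none fell, where 18.5% of all genes rose and 14.7% fell. In R848 against IFN-α 2 rose and 4 fell, where 18.4% of all genes rose and 19.0% fell. The summed level of astrocyte markers in the R848+IFN-α libraries, given above, did not overlap either single-agent group. Most of each sum came from Gfap (means of 1418, 897 and 750 CPM with both agents, R848 and IFN-α) and Aqp4 (1048, 494 and 280 CPM). Among the other tested astrocyte markers, Aldh1l1, Gja1, Fgfr3 and Sox9 had lower means with both agents than with IFN-α. Slc1a2, Slc1a3, Aldoc and S100b had higher ones. Of 10 endothelial markers 4 passed the filter, and 3 of them, Cdh5, Kdr and Flt1, rose in R848+IFN-α against R848. The summed level of all 10 endothelial markers, among them Vwf of the coagulation list, was 44.5 to 66.8 CPM with both agents, 20.2 to 29.2 CPM with R848 and 58.8 to 75.9 CPM with IFN-α. Emcn was at 0 in all 9 libraries and Cldn5 at 0 in every R848+IFN-α and IFN-α library. The endothelial counts were 1 rose and 1 fell for R848+IFN-α against IFN-α and 0 and 2 for R848 against IFN-α. Of 10 fibroblast and pericyte markers 8 were tested, and 2, 3 and 2 rose in the 3 comparisons while none fell, with sums of 173 to 272 CPM with both agents, 153 to 205 CPM with R848 and 133 to 161 CPM with IFN-α. The part of these cells in the results was not tested. Marker counts and sums, here and below, rest on TMM factors and were not made with other scalings. Library totals alone moved the median log2 fold change of all genes from -0.03 to -0.42 in R848+IFN-α against R848.

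Neutrophil markers summed to 8.85 to 9.93 CPM with both agents, 13 to 16.5 CPM with R848 and 5.07 to 6.58 CPM with IFN-α, with S100a9 and Ngp at 0 in all groups. Oligodendrocyte-lineage markers summed to 402 to 424 CPM, 425 to 430.0 CPM and 422 to 526 CPM in the same order of groups, and neuronal markers to 159 to 174 CPM, 137 to 152 CPM and 142 to 176 CPM. Of the 11 microglial markers, 5 rose and 4 fell in R848+IFN-α against R848, 1 rose and 7 fell against IFN-α, and 1 rose and 6 fell in R848 against IFN-α. Of all genes tested, 19.2%, 18.5% and 18.4% rose and 16.7%, 14.7% and 19.0% fell in these comparisons.

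The genes whose pattern was most like each of the 7 were found by the root mean square difference of mean-centred log2 CPM over the 9 libraries, among 9999 genes. For Edn1 they were Il6 (0.347), Tnfsf15 (0.429) and Il27 (0.512), all 3 of which encode cytokines. Il6 averaged 1517 CPM with both agents, 127 CPM after R848 and 13.7 CPM after IFN-α, Tnfsf15 averaged 274, 27.0 and 4.02 CPM, and Il27 averaged 366, 18.6 and 2.93 CPM in the same groups. For Adm they were Cd300e (0.367), Hvcn1 (0.383) and Dtx4 (0.454). Cd300e averaged 0.968 CPM with both agents, 8.03 CPM after R848 and 0.121 CPM after IFN-α, so its place rests on few reads. Hvcn1, a proton channel, averaged 92.2 CPM with both agents, 421 CPM after R848 and 60.2 CPM after IFN-α. Plaur was closest to Ttc39c (0.0908), Gadd45b (0.184) and Srgn (0.192), and F3 to Sec23b (0.133), Rgl1 (0.144) and Mdm2 (0.150). Thbs1 was closest to Rnf115 (0.0609), Akr1a1 (0.0700) and Tmbim6 (0.0857), Plau to Rsbn1 (0.12), Tmem55b (0.124) and Glcci1 (0.136), and Ece1 to Trim11 (0.129), Nlrc4 (0.154) and Pogz (0.161). By Pearson correlation the first gene was another one for Edn1 (Cd83), Adm (Hvcn1), F3 (Slc28a2), Thbs1 (Tnfrsf1a) and Ece1 (Ppp1r16b), and the same one for Plau and Plaur. The points of this comparison share their libraries and treatments, and no test was made.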

How the data were processed

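Per the labels' protocols, rRNA was removed and directional libraries were sequenced as read pairs of 101 cycles. The authors deposited unnormalized read counts per gene in 3 columns (unstranded, forward strand, reverse strand). Per the submitters' processing notes, CASAVA 1.8.2, Trimmomatic 0.33, STAR 2.5.1, DESeq2 and the build mm10 were used; no source used here names the gene annotation. The forward strand held 1.09% to 1.50% of counts of both strands, so the reverse-strand column was used. Summary rows that name no gene held 70.7% to 74.3% of read pairs and were left out of totals and tests.

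Genes were filtered with filterByExpr (minimum count 10, minimum total 15), which left 11002 of 24411 rows. All 9 libraries were fitted with TMM factors and the robust quasi-likelihood model of edgeR 4.0.16 (limma 3.58.1, R 4.3.3), with a biological coefficient of variation of 0.0955. Calls needed a Benjamini-Hochberg adjusted p under 0.05 over all genes tested. The SE of a log2 fold change is its size divided by the square root of F and is approximate. It may be too small where a group holds few reads. The 8 genes and the gene lists were chosen with earlier results of these data known. All 8 genes, 18 further pathway genes, up to 4 called genes per list and comparison with the largest change, and the 3 most similar genes to each of the 8 were to be named; other tested pathway genes could be. Values of 1 listed pathway gene are not reported here or drawn, though the counts over the lists include it. The marker lists covered microglia, astrocytes, endothelial cells, fibroblasts and pericytes, oligodendrocyte lineage, neurons, megakaryocytes and platelets, and neutrophils. Similar genes needed a mean of at least 5 CPM in their highest group. Positions and exon lengths are from GENCODE mouse release 21. Genes on the opposite strand overlap Edn1, Ece1, Adm and Thbs1 in that release and have no row of their own in the files.

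The labels do not say whether replicates came from separate cultures, so the p-values reflect the spread of these libraries alone, and that spread may be technical. Replicates differed by more than sampling noise (chi-square per degree of freedom 1.92 to 6.27 without the ribosomal transcript Rn45s, which held 13.3% to 26.1% of gene counts). Intervals and limits cover counting error only. Alternatives were other scalings, filters, count columns, DESeq2 1.42.0, a replicate block, and leaving libraries out.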

Additional observations from a re-analysis of the deposited data

How the results depend on the processing

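Total counts of genes called, over both directions, at an adjusted p under 0.05 stayed within 1.5 times their main value under every alternative run but one. With library totals alone 6157 genes passed for R848+IFN-α against R848, against 3947 with TMM factors. The directions moved further: with library totals alone 1173 of these genes were higher and 4984 lower, against 2112 and 1835 with TMM factors, and 1044 were higher and 3768 lower against IFN-α, where TMM factors gave 2035 and 1617. Upper-quartile factors gave 1715 and 2861, and 1697 and 2091. Leaving out 1 library at a time gave 3213 to 4070 genes for R848+IFN-α against R848, 3029 to 4221 for R848+IFN-α against IFN-α and 3658 to 4301 for R848 against IFN-α, and 16 to 21, 17 to 24 and 17 to 19 of the 39 pathway genes. DESeq2 called 3191, 2933 and 3490 genes. Of the pathway calls made by edgeR, DESeq2 did not make those of Ednrb and Lrp1 for R848+IFN-α against R848. It also lost Ece2, Ednrb and Adamts1 for R848+IFN-α against IFN-α, and Thbs3 for R848 against IFN-α. Same-numbered libraries of 2 groups correlated between -0.101 and 0.0587 in their deviations. With 3 libraries per group, these values cannot decide whether libraries of the same number share a preparation. Replicates 2 and 3 were the closest pair in each group. Without Rn45s their chi-square per degree of freedom was 2.485 for R848+IFN-α, 2.529 for R848 and 1.917 for IFN-α. With the replicate number as a block 3995, 3701 and 4147 genes and 21, 21 and 18 pathway genes were called. Among the 7 fitted genes, Ece1 changed sign in 5, 2 and 2 settings, Plau changed sign for R848+IFN-α against R848 and Thbs1 for R848+IFN-α against IFN-α with library totals alone, and no sign of Edn1, Adm, F3 or Plaur turned in any setting run. Over those settings the log2 fold change of R848+IFN-α against R848 ran from 3.88 to 4.49 for Edn1 and from -3.26 to -2.71 for Adm. Depth limits the low genes: F10, Ece1 and Edn1 in the IFN-α group rest on few reads.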

Other observations

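The forward-strand column held few reads at the genes described above. Over the 9 libraries it held 4 of 2280 reads at Edn1 (0.175%, exact binomial 95% interval 0.0478% to 0.449%), 1 of 675 at Adm (0.148%, 0.00375% to 0.823%) and 3 of 170 at Ece1 (1.76%, 0.365% to 5.07%). At Plaur it held 27 of 9734 reads (0.277%, 0.183% to 0.403%), at Thbs1 59 of 14896 (0.396%, 0.302% to 0.511%), at F3 13 of 3272 (0.397%, 0.212% to 0.678%) and at Plau 20 of 4914 (0.407%, 0.249% to 0.628%). The share over all genes, weighted by the libraries that held each gene's reads, was 1.26% to 1.32%.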
